A study of Mus musculus with 14 samples.

Results

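The genes followed here through puberty in the mouse mammary gland encode secreted proteins of the Wnt pathway. They are the 5 Wnt ligands Wnt2, Wnt4, Wnt5a, Wnt5b and Wnt6 and the 5 secreted Wnt inhibitors Wif1, Sfrp1, Sfrp2, Sfrp4 and Frzb, 10 genes of the 12393 that the arrays name. They were picked by name, with earlier results of these data known. Every probe set (a group of short probes to 1 transcript) whose platform annotation gives exactly 1 of these symbols was taken, which gave 16 probe sets. The samples were whole inguinal mammary glands (the 4th pair) of untreated female CD1 mice, an outbred stock, from which the lymph nodes had been removed. The ages were 3, 4, 5, 6 and 7 weeks (3wk to 7wk). Of the 14 Affymetrix arrays, 5wk had 2, lettered A and B, and every other age had 3, lettered A to C. RNA of 3 mice or more was pooled for each array, so that the spread between arrays is a spread between pools and averages over mice, and no animal carried a transgene or received a treatment.

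Wnt ligands are lipid-modified glycoproteins that act over short distances through Frizzled receptors. In the canonical branch of the pathway they stabilise beta-catenin, which then acts on genes together with TCF and LEF factors, and other branches act on cell shape and movement. Wif1 and the Sfrp family, of which Frzb is a member, bind Wnt proteins outside the cell. In the mouse mammary gland Wnt4 is known as a mediator of progesterone in side branching, and Wnt5a as a restraint on branching.

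In the deposited table each probe set is divided by its median over the 14 arrays. A ratio of 1 is thus the middle array of that probe set, and ratios compare ages within a gene but not levels between genes. For weak probe sets the ratios moved in whole steps, which let the level before division be recovered in steps. A step is the smallest unit of that array's signal, and its size differed between arrays. For Wif1, a ratio of 2.136 was 314 steps on 6wk C, and a ratio of 1.337 was 300 steps on 7wk B. Steps therefore show how weak a signal was and do not rank arrays as the ratios do. A level of 200 steps is likewise not the same ratio on every array. Of the 16 probe sets 7 had such a recovered level, and 6 of those were under 200 steps on some arrays. Probe sets under 200 steps on at least 13 of the 14 arrays were left out of the tests, and this removed 1 of the 16, Frzb 1416658_at. The other 15 were tested among 19972 probe sets, 7 of ligands and 8 of inhibitors. Controls of RNA quality differed between ages. The log2 of the 5′ over the 3′ actin signal was −0.46 on 6wk A and −0.79 on 6wk B and lay between −0.26 and 0.28 on the other 12 arrays. The same ratio for pyruvate carboxylase was lowest on the 6wk arrays (−2.78, −2.51 and −1.81), was −1.25 and −0.66 at 5wk and 0.76 to 0.90 at 7wk, and lay between −0.66 and 0.46 at 3wk and 4wk. The mean of the 18 hybridisation spikes was lowest at 7wk (−1.86 to −0.79, against −0.58 to 1.10 at the other ages). No sample label gives a batch.

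Across the 5 ages, 6 of the 15 tested probe sets differed in limma's F test (adjusted p below 0.05). Of these, 4 were of ligands, namely Wnt2, Wnt4, Wnt5a 1436791_at and Wnt5b 1422602_a_at, and the others were the inhibitors Wif1 and Sfrp1 1448395_at. Over all probe sets 8.72% were called. The F test calls of Wnt4 and Wnt5a held in each of 14 fits that left out 1 array. Those of Wnt2, Wnt5b, Wif1 and Sfrp1 were lost in most of these fits. Without 3wk A, for example, their F test adjusted p values were 0.0650, 0.0730, 0.112 and 0.0759. The calls against 3wk were all upwards. At 6wk, 6 of the 15 were higher than at 3wk (7.82% of all probe sets were), and 0 were lower (4% of all were). At 7wk, 5 were higher (5.11% of all) and 0 lower (2.21% of all). At 5wk, 3 were higher (1.94% of all) and 0 lower (0.971% of all). The median log2 difference from 3wk over the 15 was 0.97 at 5wk, 0.53 at 6wk and 0.87 at 7wk, against 0.04, 0.06 and 0.07 over all 19972. Because the members were chosen with earlier results of these data known, their counts and medians beside those of all probe sets are a description and no test. At 4wk, 0 of the 15 were called higher (0.1% of all) or lower (0.01% of all), and 3 had an unadjusted p below 0.05 (1961 of all 19972 did). Some of the 15 passed the filter on weak signal only through the ages at which they were high, as stated at each below, and such a probe set had to differ between arrays. With the pyruvate carboxylase ratio as a covariate, an alternative chosen after seeing the data, limma called 0 of the 15 in the F test (8 had an unadjusted p below 0.05, lowest adjusted p 0.0538) and 0 at 6wk against 3wk (1 had an unadjusted p below 0.05). In that fit 0 of all 19972 were called at 6wk against 3wk. The 6wk arrays do not overlap the others in this ratio, so the 6wk differences and the ratio can hardly be told apart. At 7wk against 3wk the same fit called 0 of the 15 and 263 of all 19972. With the spike mean as a covariate 1 of the 15 and 283 of all were called at 7wk against 3wk. In this ratio and in the spike mean the 7wk arrays also do not overlap the others. The 7wk differences can therefore hardly be told apart from either measure.

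**Figure D1:**
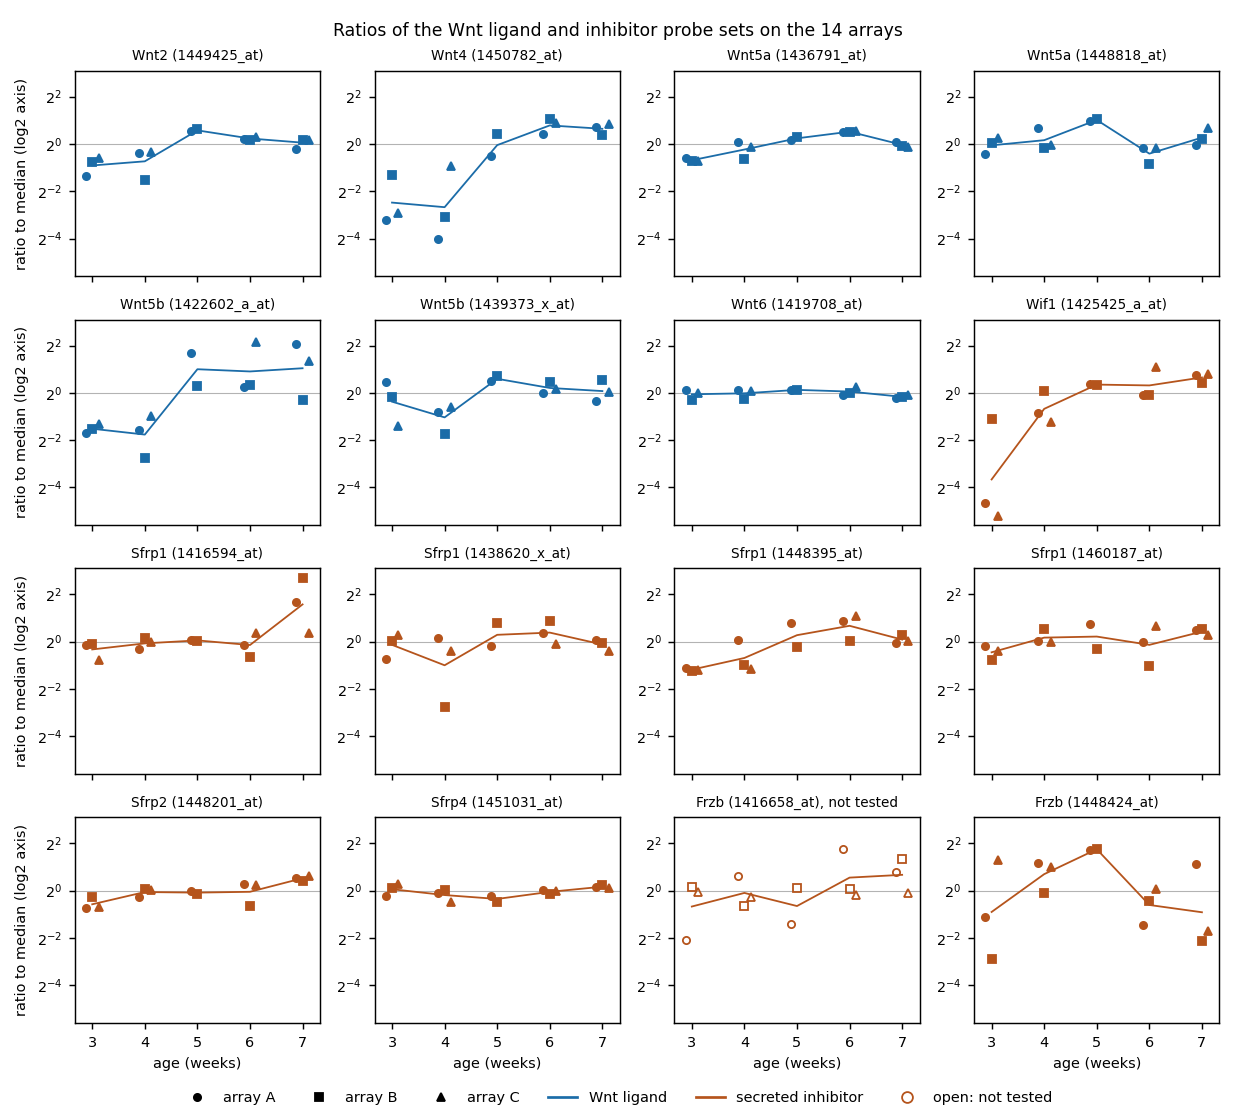
Ratio to the probe set's median (log2 axis) against age in weeks for the 16 probe sets. Each marker is 1 array, lines join the means of the log2 values, and open markers show the Frzb probe set that was not tested. Wnt4 and Wif1 span the widest range, with their 5wk to 7wk arrays near or above 1, while Wnt6 and Sfrp4 stay between 0.719 and 1.22 on all 14 arrays.

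Wnt4, the ligand linked to progesterone, was low at 3wk and 4wk and rose 9.61-fold by 6wk relative to 3wk. Its 1 probe set, 1450782_at, had ratios of 0.109, 0.397 and 0.133 at 3wk (arrays A, B and C in this order, here and for the genes that follow), 0.0616, 0.119 and 0.524 at 4wk, 0.698 and 1.336 at 5wk, 1.341, 2.057 and 1.849 at 6wk and 1.632, 1.302 and 1.781 at 7wk. Every array from 5wk on lay above all 6 arrays of 3wk and 4wk, and the 5wk arrays overlapped those of 7wk. At 6wk Wnt4 was 3.26 higher than at 3wk on the log2 scale (SE 0.69, 95% interval 1.74 to 4.79, adjusted p 0.0128). At 7wk it was 3.12 higher than at 3wk (SE 0.69, 8.70-fold, adjusted p 0.0215). The difference of 2.43 at 5wk (SE 0.77, adjusted p 0.129) did not pass, and it passed without 4wk C (adjusted p 0.0428). The 4wk mean differed from 3wk by −0.19 (95% interval −1.72 to 1.33). In whole glands, fewer cells of a type and less RNA per cell cannot be told apart. The 6wk value was called in each of 14 fits that left out 1 array (adjusted p 0.00303 to 0.0469), and the 7wk value was lost without 3wk A, 3wk C or any 7wk array (adjusted p up to 0.0719). With 6wk A and B, the arrays of lowest actin ratio, left out together the 6wk difference was 3.37 (adjusted p 0.133), and with the actin ratio as a covariate it was 2.58 (adjusted p 0.244). The 7wk difference was 3.56 (adjusted p 0.138) with the spike mean as a covariate.

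Wif1, a secreted inhibitor that binds Wnt proteins, was lowest on 2 of the 3wk arrays and higher at 6wk and 7wk. Probe set 1425425_a_at had ratios of 0.0399, 0.458 and 0.0269 at 3wk, 0.547, 1.053 and 0.424 at 4wk, 1.297 and 1.249 at 5wk, 0.947, 0.947 and 2.136 at 6wk and 1.675, 1.337 and 1.728 at 7wk. Arrays 3wk A and 3wk C stood far below the rest, and 3wk B reached the level of the 4wk arrays. Wif1 rose by 3.98 at 6wk against 3wk (SE 0.85, 15.7-fold, 95% interval 2.11 to 5.84, adjusted p 0.0131) and by 4.31 at 7wk against 3wk (SE 0.85, 19.9-fold, 95% interval 2.45 to 6.18, adjusted p 0.0120). At 5wk it was 4.01 higher than at 3wk (SE 0.95, adjusted p 0.0487), a call that 13 of the 14 fits leaving out 1 array lost. At 4wk the difference from 3wk was 2.99 (SE 0.85, adjusted p 0.257), and without 3wk B it was 4.25 (adjusted p 0.00845).

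The size of the Wif1 rise depends on arrays near the bottom of the scale. Its recovered level was 8, 86 and 6 steps at 3wk, 104, 222 and 78 at 4wk, 256 and 230 at 5wk, 210, 206 and 314 at 6wk and 261, 300 and 249 at 7wk. It passed the filter through 1 array at 4wk and all arrays from 5wk on. At 6wk the Wif1 value of 3.98 is therefore the largest of the 15 only as the ratios stand. At 7wk the value of 4.31 shrinks with a floor on the ratios but stays above that of Wnt4. With ratios below 0.1 raised to 0.1 the Wif1 difference from 3wk was 2.90 at 6wk (adjusted p 0.00861), below the 3.26 of Wnt4 in that fit, and 3.24 at 7wk (adjusted p 0.00655), against 3.12 for Wnt4. Leaving out 1 array moved the 7wk difference between 3.54 and 5.58, with the highest value without 3wk B. With the spike mean as a covariate the 7wk difference was 3.74 (adjusted p 0.195), and with the actin ratio as a covariate the 6wk difference was 5.02 (adjusted p 0.0726). With the pyruvate carboxylase ratio as a covariate the 6wk difference was 1.21 (adjusted p 0.940) and the 7wk difference 5.41 (adjusted p 0.0541).

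**Figure D2:**
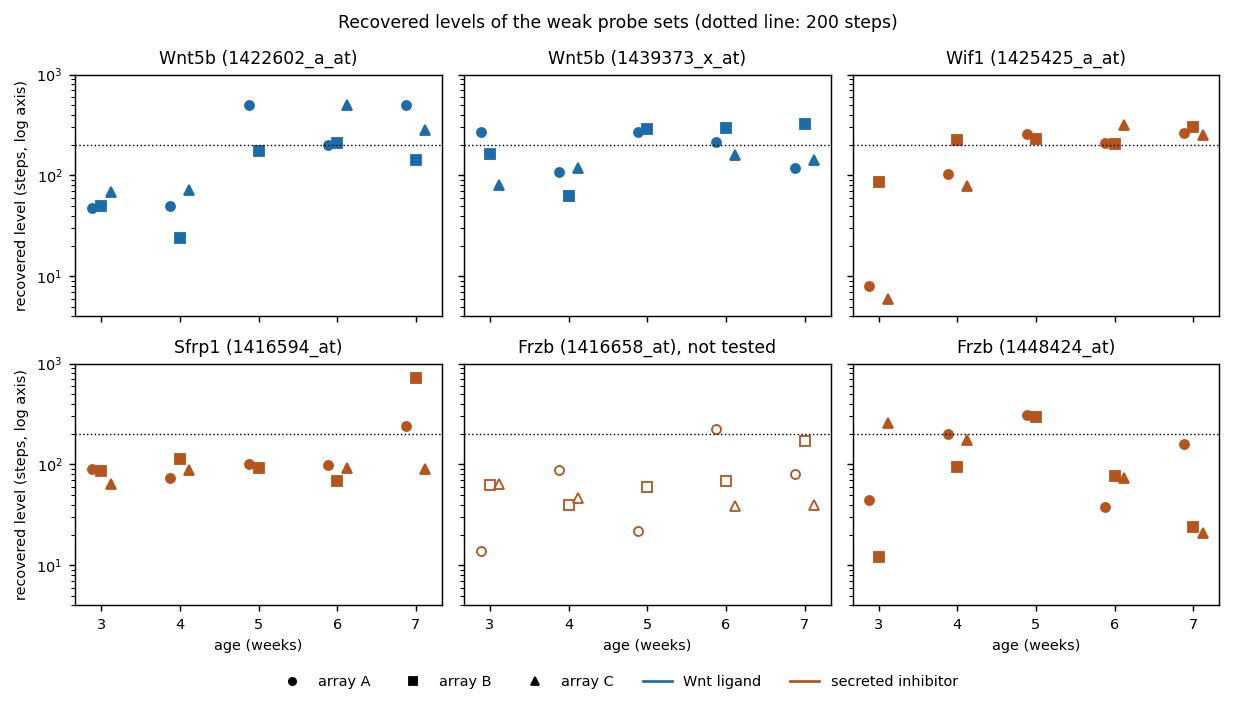
Recovered level in steps (log axis) against age in weeks for 6 weak probe sets, with 1 marker an array and a dotted line at 200 steps. The size of a step differs between arrays, so heights do not rank arrays as the ratios do. Wif1 has 3wk A and C at 8 and 6 steps, Wnt5b 1422602_a_at stays at or below 72 steps at 3wk and 4wk, and Sfrp1 1416594_at exceeds 200 steps only on 7wk A and B.

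Wnt5a, the ligand known to restrain branching, had the smallest F test p of the 15 with 1 of its 2 probe sets. Probe set 1436791_at had ratios of 0.661, 0.601 and 0.599 at 3wk, 1.048, 0.641 and 0.911 at 4wk, 1.138 and 1.221 at 5wk, 1.402, 1.428 and 1.467 at 6wk and 1.068, 0.952 and 0.910 at 7wk. The 6wk arrays lay above all others and the 7wk arrays below both 5wk arrays. It was 1.21 higher at 6wk than at 3wk (SE 0.17, 2.31-fold, 95% interval 0.84 to 1.57, adjusted p 0.00143), 0.93 higher at 5wk than at 3wk (SE 0.18, adjusted p 0.0236) and 0.65 higher at 7wk than at 3wk (SE 0.17, adjusted p 0.0376). The 7wk value was 0.56 below that of 6wk (−0.56, SE 0.17), with an adjusted p of 0.180. The 6wk call held in all 14 fits without 1 array, while the 7wk call was lost in 11 of the 14 (adjusted p up to 0.124) and the 5wk call in 4. With quantile normalization the 7wk difference was 0.53 (adjusted p 0.0877).

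The other Wnt5a probe set, 1448818_at, did not follow the first. Its ratios were 0.737, 1.023 and 1.174 at 3wk, 1.587, 0.897 and 0.977 at 4wk, 1.975 and 2.062 at 5wk, 0.878, 0.553 and 0.877 at 6wk and 0.970, 1.142 and 1.577 at 7wk. The 5wk arrays were the highest of the 14 and the 6wk arrays among the lowest. It was not called in the F test (adjusted p 0.0866), and its 6wk minus 3wk difference was −0.35 (95% interval −0.97 to 0.27), outside the interval of the first probe set. The 5wk value was 1.07 above 3wk (SE 0.32, adjusted p 0.104) and the 6wk value differed from 5wk by −1.42 (SE 0.32, adjusted p 0.142). Both probe sets name Wnt5a alone, so the gene's course at 6wk differs with the probe set read.

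Wnt2, a ligand of the canonical branch, had ratios of 0.386, 0.596 and 0.654 at 3wk, 0.771, 0.352 and 0.799 at 4wk, 1.446 and 1.531 at 5wk, 1.154, 1.133 and 1.236 at 6wk and 0.872, 1.137 and 1.128 at 7wk (1449425_at). Its 2 highest arrays were those of 5wk, and every array from 5wk on was above all of 3wk and 4wk. It rose by 1.48 at 5wk against 3wk (SE 0.33, 2.80-fold, adjusted p 0.0396) and by 1.14 at 6wk against 3wk (SE 0.30, 2.21-fold, adjusted p 0.0315). The 7wk difference from 3wk was 0.96 (SE 0.30, adjusted p 0.0792). The 5wk call was lost in 11 of the 14 fits without 1 array and the 6wk call in 5, with differences of 0.91 to 1.29 at 6wk. Both calls were also lost with trend and robust moderation (adjusted p 0.106 at 5wk and 0.0680 at 6wk) and with the actin ratio as a covariate (adjusted p 0.121 at 5wk and 0.322 at 6wk).

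Wnt5b, a close relative of Wnt5a, was also measured by a pair of probe sets. The first, 1422602_a_at, had ratios of 0.311, 0.345 and 0.396 at 3wk, 0.341, 0.147 and 0.507 at 4wk, 3.257 and 1.224 at 5wk, 1.180, 1.251 and 4.433 at 6wk and 4.158, 0.820 and 2.545 at 7wk. All arrays from 5wk on were above those of 3wk and 4wk, but replicates of 1 age differed widely, as at 7wk. It was 2.42 higher at 6wk than at 3wk (SE 0.70, 5.36-fold, 95% interval 0.89 to 3.96, adjusted p 0.0470), a call lost in 10 of the 14 fits without 1 array. It was also lost with no filter on weak signal (adjusted p 0.0566), with quantile normalization (adjusted p 0.0667) and with the spike mean as a covariate (adjusted p 0.0751). At 7wk the difference from 3wk was 2.56 (SE 0.70, adjusted p 0.0507) and at 5wk 2.52 (SE 0.78, adjusted p 0.121). Its recovered level was 24 to 72 steps at 3wk and 4wk and 142 to 503 steps later, so it passed the filter only through 6 arrays from 5wk on. The second, 1439373_x_at, carries the suffix that Affymetrix gives to probe sets whose probes can match other transcripts. It ranged from 0.374 to 1.375 at 3wk and from 0.785 to 1.466 at 7wk, and was not called (F test adjusted p 0.181, 6wk minus 3wk 0.58, SE 0.44). It passed the filter through 6 arrays, 3wk A (268 steps) and arrays from 5wk on.

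Wnt6, a further ligand, varied little. Probe set 1419708_at had ratios from 0.809 to 1.095 at 3wk, 0.844 to 1.087 at 4wk, 1.088 to 1.093 at 5wk, 0.942 to 1.176 at 6wk and 0.853 to 0.935 at 7wk. The 7wk minus 3wk difference was −0.11 (95% interval −0.44 to 0.22), and the F test gave an adjusted p of 0.643.

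Promoter sequences of 3 members are printed here because their genes gave the 3 largest differences at 6wk, so that the sequence before each start site can be read beside those values. RefSeq entries for GRCm38.p6, each holding 250 bases before to 50 bases after an annotated start, were found for 7 of the 10 genes (9 promoters) and not for Wnt5a, Sfrp1 and Sfrp4. They were searched on both strands for 5 motifs: the TCF/LEF site CTTTGAA or CTTTGAT, the steroid receptor half-site AGAACA, the oestrogen receptor half-site AGGTCA, the GATA site AGATAA and the TATA box TATAAA. Capitals mark matches to any of these. The 3 are Wnt4 at chr4:137277385-137277684 (plus strand), Wif1 at chr10:121033754-121034053 (plus strand) and, of 3 Wnt5b starts, the 1 with a TCF/LEF match, at chr6:119449337-119449636 (minus strand).
Wnt4: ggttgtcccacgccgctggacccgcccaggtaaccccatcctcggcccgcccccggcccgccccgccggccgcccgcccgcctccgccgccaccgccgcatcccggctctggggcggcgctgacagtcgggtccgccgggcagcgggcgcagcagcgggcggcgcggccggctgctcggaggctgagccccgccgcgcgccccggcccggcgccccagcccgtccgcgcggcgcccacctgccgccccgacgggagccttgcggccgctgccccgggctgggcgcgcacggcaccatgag
Wif1: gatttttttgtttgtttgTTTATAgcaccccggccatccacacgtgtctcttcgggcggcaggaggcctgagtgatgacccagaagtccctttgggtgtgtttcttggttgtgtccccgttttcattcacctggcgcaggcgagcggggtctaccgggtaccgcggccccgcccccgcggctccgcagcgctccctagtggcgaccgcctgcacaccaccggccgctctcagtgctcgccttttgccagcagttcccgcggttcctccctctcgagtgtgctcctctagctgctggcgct
Wnt5b: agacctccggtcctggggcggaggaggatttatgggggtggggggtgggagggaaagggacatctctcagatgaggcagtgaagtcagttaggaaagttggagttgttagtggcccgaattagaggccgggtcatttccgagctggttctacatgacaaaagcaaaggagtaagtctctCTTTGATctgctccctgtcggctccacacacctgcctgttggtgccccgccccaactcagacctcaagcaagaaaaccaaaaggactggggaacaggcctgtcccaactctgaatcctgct

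The Wnt4 stretch held 0 matches and was 84.3% G and C, against a median of 52.7% over all 32851 promoters in the table. The Wif1 stretch was 63.0% G and C and held 1 match, TTTATA, at position −232 from the start. That site lies in 13.6% of all promoters. The printed Wnt5b stretch held 1 TCF/LEF match at bases 180 to 186 (position −71 from the start), and 8.65% of all promoters have such a match. Of the other 6 promoters, a further Wnt5b start held the steroid half-site (19.0% of all promoters) and Frzb the oestrogen half-site (16.3% of all), 4 held no match, and the GATA site, found in 11.2% of all promoters, was in 0 of the 9. A match is a run of letters and was not tested as a binding site.

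Sfrp1, an inhibitor with a Frizzled-like domain that binds Wnt proteins, was measured by 4 probe sets that did not run together. Probe set 1448395_at had ratios of 0.463, 0.425 and 0.435 at 3wk, 1.059, 0.506 and 0.446 at 4wk, 1.710 and 0.857 at 5wk, 1.840, 1.026 and 2.143 at 6wk and 0.974, 1.202 and 1.029 at 7wk. The 3wk arrays lay close together at the bottom and 2 of the 6wk arrays at the top. It was 1.85 higher at 6wk than at 3wk (SE 0.37, 3.62-fold, 95% interval 1.05 to 2.66, adjusted p 0.00953), a call that held in all 14 fits without 1 array, and the 7wk difference from 3wk was 1.27 (SE 0.37, adjusted p 0.0632).

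Probe set 1416594_at was called at another age. It had ratios of 0.919, 0.937 and 0.588 at 3wk, 0.796, 1.106 and 0.979 at 4wk, 1.057 and 1.021 at 5wk, 0.903, 0.639 and 1.293 at 6wk and 3.163, 6.508 and 1.291 at 7wk. Only 7wk A and B stood apart, and 7wk C was level with the highest 6wk array. The 7wk minus 3wk difference was 1.90 (SE 0.48, 3.74-fold, adjusted p 0.0367), and 10 of the 14 fits without 1 array lost it, with differences of 1.34 to 2.51. With the spike mean as a covariate the difference was 1.63 (adjusted p 0.309). The probe set passed the filter only through those 2 arrays, at 241 and 714 steps, against 64 to 114 steps on the other 12. The remaining pair, 1460187_at and 1438620_x_at, had F test adjusted p values of 0.486 and 0.492, and their 6wk minus 3wk differences were 0.32 (95% interval −0.56 to 1.19) and 0.52 (95% interval −0.87 to 1.91).

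Sfrp2, of the same family, was highest at 7wk. Probe set 1448201_at had ratios of 0.594, 0.825 and 0.611 at 3wk, 0.824, 1.052 and 1.014 at 4wk, 0.986 and 0.900 at 5wk, 1.198, 0.643 and 1.166 at 6wk and 1.442, 1.323 and 1.550 at 7wk. All 3 of the 7wk arrays were above the other 11. It rose by 1.10 at 7wk against 3wk (SE 0.23, 2.15-fold, 95% interval 0.59 to 1.61, adjusted p 0.0172), and lost the call without 3wk A, 3wk C, 7wk A or 7wk C (adjusted p up to 0.0635). The F test over all ages did not call it (adjusted p 0.0816). With the spike mean as a covariate its 7wk difference was 0.80 (adjusted p 0.281).

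Sfrp4 (1451031_at) ranged from 0.719 to 1.22 over the 14 arrays. Its 7wk minus 3wk difference was 0.11 (95% interval −0.26 to 0.47) and its 5wk minus 3wk difference −0.41 (SE 0.19, adjusted p 0.295). Frzb, also known as Sfrp3, was weak. Its tested probe set, 1448424_at, had ratios of 0.463, 0.135 and 2.441 at 3wk, 2.239, 0.939 and 2.017 at 4wk, 3.310 and 3.409 at 5wk, 0.361, 0.736 and 1.061 at 6wk and 2.150, 0.225 and 0.307 at 7wk. The 5wk arrays were the highest, but replicates of 3wk and 7wk differed by more than the ages did, and the F test adjusted p was 0.345. It passed the filter through 3wk C, 4wk A and both 5wk arrays (202 to 310 steps). The Frzb probe set that was not tested, 1416658_at, had 14 to 226 steps, with 6wk A the only array above 200.

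**Figure D3:**
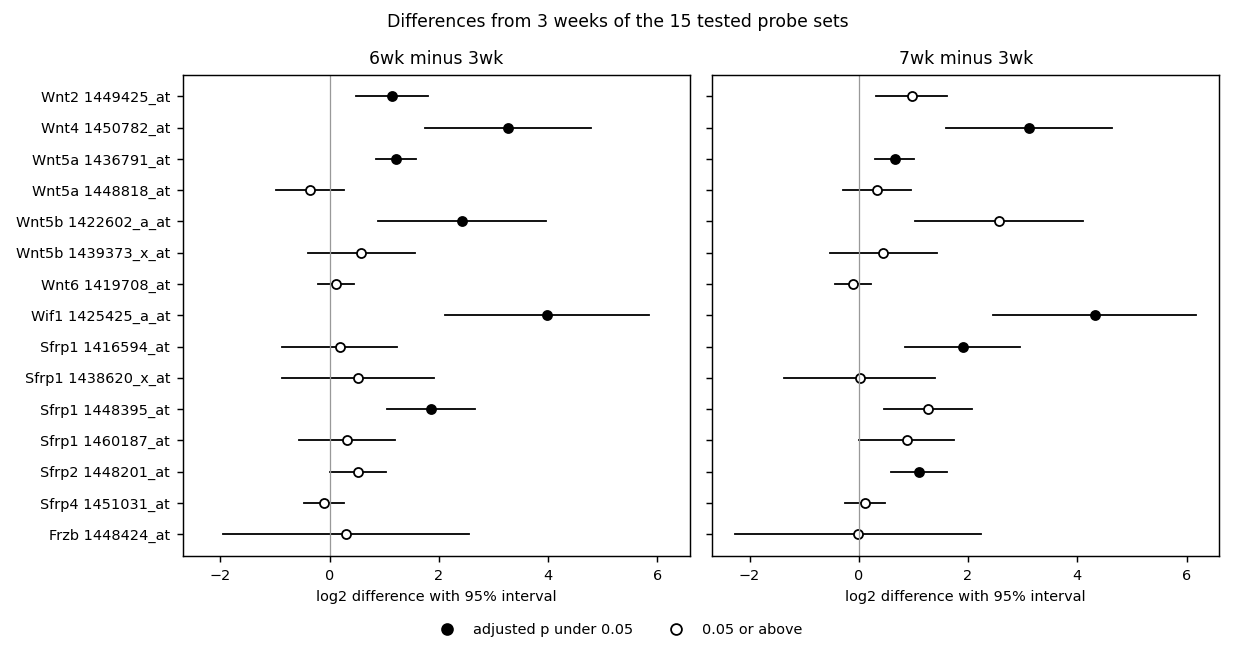
Log2 difference of 6wk minus 3wk and 7wk minus 3wk, with 95% intervals from the limma fit, for the 15 tested probe sets. Filled markers have an adjusted p below 0.05: 6 of 15 at 6wk and 5 of 15 at 7wk, all to the right of 0. Wif1 is drawn at 3.98 and 4.31 and Wnt4 at 3.26 and 3.12, and with ratios floored at 0.1 Wif1 would lie at 2.90 and 3.24.

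From one week to the next, none of the 15 was called after adjustment in limma's fit. Between 5wk and 4wk, the step at which Wnt4 moved most, 0 were called, against 0.215% of all probe sets called higher and 0.28% lower. An unadjusted p below 0.05 was found there for 7 of the 15 and for 2834 of all 19972. The Wnt4 difference there was 2.62 (SE 0.77, adjusted p 0.151), that of Wnt5b 1422602_a_at 2.76 (SE 0.78, adjusted p 0.141) and that of Wnt2 1.31 (SE 0.33, adjusted p 0.112). Between 6wk and 5wk, 0 were called (0.025% of all called higher and 0.145% lower), and 1 had an unadjusted p below 0.05 (1987 of all 19972 did). Between 7wk and 6wk, 0 were called (0.571% of all called higher and 0.1% lower), and 4 had an unadjusted p below 0.05 (2645 of all 19972 did). Without 1 array, Wif1 at 4wk against 3wk, Wnt4 at 5wk against 4wk (3.50, adjusted p 0.0497 without 4wk C) and Sfrp1 1416594_at at 7wk against 6wk (2.32, adjusted p 0.0375 without 7wk C) passed.

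Markers of the epithelium rose over the same weeks. Of 10 measured luminal markers, 10 were called higher at 6wk and 10 at 7wk against 3wk, with medians of 2.40 and 2.13 on the log2 scale, against 8.39% and 5.82% of all 11344 genes. Krt8, a luminal keratin, was 1.96 higher at 6wk than at 3wk (SE 0.34, adjusted p 0.00518), and Krt14, a basal keratin, 1.65 higher (SE 0.21, adjusted p 0.00102). The luminal list's mean log2 ratio was −2.34, −1.38 and −1.63 at 3wk, −1.09, −1.34 and −0.75 at 4wk, 0.07 and 0.21 at 5wk, 0.28, 0.32 and 0.89 at 6wk and 0.48, 0.34 and 0.30 at 7wk. Among the 3wk arrays B is the highest in this list, in Wnt4 and in Wif1. The basal list's mean was instead lowest on 3wk B (−0.92, −1.13 and −0.83 on 3wk A, B and C). Of the other probe sets called in the F test, those of Wnt5a and Sfrp1 were highest on 3wk A among these arrays. Those of Wnt2 and Wnt5b were highest on 3wk C. Of 8 basal markers, 4 were higher at 6wk and 3 at 7wk than at 3wk. Of 7 fibroblast markers, 1 was higher at 6wk and 0 at 7wk, with medians of 0.24 and 0.25. Of 5 fat cell markers, 1 was called lower at 6wk and 3 at 7wk, with medians of −0.24 and −0.43, against 3.76% and 2.47% of all genes called lower. Adipoq, a hormone of fat cells, was called lower at 7wk than at 3wk (−0.43, SE 0.10, adjusted p 0.0264), while Lep, also a fat cell hormone, differed by 0.77 (SE 0.25, adjusted p 0.0849) and was not called.

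Subtracting the luminal list's mean from each array lowers every difference by the same amount, 2.28 for 6wk minus 3wk and 2.16 for 7wk minus 3wk, and moves the median of all 19972 probe sets to −2.22 and −2.08. Which members lie above 0 on that scale thus follows from the sizes given above. On it Wnt4 was 0.99 higher at 6wk than at 3wk (adjusted p 0.108) and 0.97 higher at 7wk (adjusted p 0.117), and neither was called. Wif1 was called on that scale, 1.70 higher at 6wk (adjusted p 0.0416) and 2.16 higher at 7wk (adjusted p 0.0138), each against 3wk. These Wif1 values include the 3wk arrays at 8 and 6 steps, and the scaling was not run together with the ratio floor. The part of the luminal markers in the members' results was not tested.

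**Figure D4:**
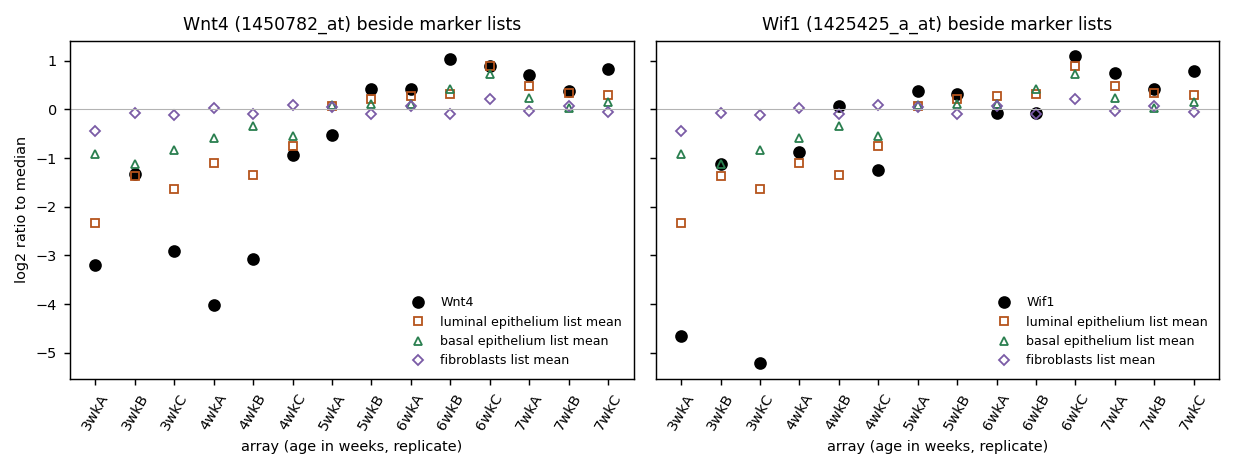
Log2 ratio of Wnt4 (left) and Wif1 (right) on each of the 14 arrays, beside the mean log2 ratio of the luminal, basal and fibroblast marker lists on the same arrays. The luminal mean runs from −2.34 on 3wk A to 0.89 on 6wk C, and the fibroblast mean stays between −0.45 and 0.22.

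The rest of the Wnt pathway was counted list by list. At 6wk against 3wk, 0 of 10 other Wnt ligands, 1 of 7 other secreted inhibitors, 4 of 13 receptors and co-receptors, 1 of 5 genes of the R-spondin arm, 1 of 29 of secretion and signalling and 3 of 16 beta-catenin targets were called higher, against 8.39% of all genes. Lower were 1 receptor and 1 gene of secretion and signalling (3.76% of all). Of the 10 ligands, 1 was called in the F test (8.95% of all 11344 genes were): Wnt7b, a ligand of epithelia, 1.47 higher at 7wk than at 3wk (SE 0.26, adjusted p 0.00634). Of 7 genes listed as other secreted inhibitors, 1 was called: Dkkl1, listed as a relative of the Dickkopf inhibitors. Dkkl1 was 3.53 higher at 7wk than at 3wk (SE 0.46, adjusted p 0.00124) and 2.70 higher at 6wk (SE 0.46, adjusted p 0.00460). Whether Dkkl1 acts on Wnt proteins was not tested. Of 13 receptors and co-receptors, 2 were called. Fzd1 was 0.98 higher at 6wk than at 3wk (SE 0.23, adjusted p 0.0184) and Fzd4 fell by 0.97 (SE 0.18, adjusted p 0.00598). Of 5 genes of the R-spondin arm, which raises Wnt receptor levels, 0 were called in the F test, 1 was called higher at 6wk and 1 at 7wk against 3wk (5.82% of all genes at 7wk).

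Of 29 genes of Wnt secretion and intracellular signalling, 2 were called in the F test. Wls, the carrier that takes Wnt proteins to the cell surface, was 0.69 higher at 5wk (SE 0.13, adjusted p 0.0138), 0.81 higher at 6wk (SE 0.11, adjusted p 0.00159) and 0.78 higher at 7wk (SE 0.11, adjusted p 0.00220), each against 3wk. Prickle1, of the planar polarity branch, was called over the 5 ages, and its 6wk minus 3wk difference was 0.44 (SE 0.13, adjusted p 0.0526). Of 16 target genes of beta-catenin, 4 were called: Jun, Id2, Nkd1 and Ccn4. Jun was 0.96 higher at 6wk than at 3wk (SE 0.14), Id2 1.20 higher (SE 0.22) and Ccn4 2.27 higher (SE 0.50), with adjusted p of 0.00207, 0.00691 and 0.0142. Nkd1, a feedback inhibitor, had its lowest mean at 4wk (4wk minus 3wk −1.43, SE 0.31, adjusted p 0.120). Axin2, a common reporter of the canonical branch, differed by −0.22 at 6wk (SE 0.42) and 0.73 at 7wk (SE 0.42) from 3wk and was not called (F test adjusted p 0.451).

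The probe sets most like each called member were found by Pearson correlation of log2 ratios over the 14 arrays, among 18169 to 18172 that name 1 other gene. These values describe arrays that share ages, so any gene that rises after 4wk will score high. Wnt4 ran closest with Wwc1 (r 0.963), Tmem30b (0.955) and Rhov (0.945), and Wif1 with the cell surface proteoglycan Sdc1 (0.948), the transporter Abcc3 (0.948) and the potassium channel Kcnk1 (0.947). Wnt2 ran with the kinase Stk26 (0.962), the desmosomal cadherin Dsc2 (0.948) and Spon2 (0.931). Wnt5a 1436791_at ran with Anxa3 (0.955), Rmnd5a (0.951) and Scarb2 (0.950), Wnt5b 1422602_a_at with Arrb1 (0.956), Tmprss13 (0.924) and Nop53 (0.921), and Sfrp1 1448395_at with Rnf145 (0.947), Magee1 (0.939) and Crispld1 (0.930).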

How the data were processed

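Per the labels, total RNA from pooled glands was labelled as biotinylated cRNA and hybridised to Affymetrix arrays. The deposited values are linear ratios: 98.5% of the 22690 probe sets have a median of 1 within 0.001 over the 14 arrays, so the authors had divided each by its own median. Software, scaling and detection calls: not given in the sources used here. In 337 probe sets with medians below 0.98 each array's values were whole multiples of an array step, and with these steps a level was recovered for 7679 probe sets (33.8%). The 64 control probe sets and 2654 with under 200 steps on at least 13 arrays were left out, leaving 19972. The array medians of the deposited ratios differed by at most 0.09 on the log2 scale, and no normalization was applied.

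A linear model of the log2 ratios on age was fitted over the 14 arrays in R 4.3.3 (limma 3.58.1), so that 5wk, with 2 arrays, shares the spread of all ages. Empirical Bayes moderation gave the F test and 7 two-sided comparisons, with Benjamini-Hochberg adjustment within each over all tested probe sets and a threshold of 0.05. Lists were fitted likewise on gene means of probe sets. The fit was tested on simulated data for 7wk minus 3wk. It called 44% of simulated log2 changes of 1, 84% of changes of 2, 88% of changes of 3 and 94% of changes of 4. Changes near 1 were thus often missed. Plots came from matplotlib 3.10.9 and sequence and step tables from pandas 2.3.3 under Python 3.11.15. Gene names are those of the platform annotation; 691 probe sets name several genes and 1555 none, and these were not used as members. The members and lists were chosen with earlier results of these data known. Named were every member probe set, up to 4 F-called genes of each Wnt list, the 3 most correlated probe sets of each F-called member, and Krt8, Krt14 and Adipoq; Axin2, Lep and the genes of the hormone and brown fat lists were added after their values were seen. Alternatives were other filters, quantile normalization, a ratio floor, gene means, actin, spike and pyruvate carboxylase covariates, a replicate block, trend and robust moderation, scaling to the luminal list and leaving out arrays. The letters A to C were not used to pair arrays in the main fit, and what they mark is not stated. Of 26 same-letter pairs 0 had deviations correlated above 0.1. With 2 or 3 arrays an age this cannot exclude a pairing.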

Additional observations from a re-analysis of the deposited data

How the results depend on the processing

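The number of member probe sets called depends on the fit. The F test called 6, against 1 with the actin ratio as a covariate, 2 with the spike mean as a covariate, 0 with the pyruvate carboxylase ratio as a covariate (chosen after seeing the data), 1 with 6wk A and B left out together and 5 with a replicate block. Without 1 array it called 2 to 5: 2 without 3wk A, 3wk C, 6wk A or 7wk A, and 3 without 3wk B, 5wk A, 6wk C, 7wk B or 7wk C. For 5wk minus 3wk the 3 calls became 1 with the actin covariate, 0 with the pyruvate carboxylase covariate, 0 without 6wk A and B, 0 with trend and robust moderation and 0 to 3 without 1 array (0 without 3wk C, 5wk A or 5wk B). For 6wk minus 3wk the 6 became 2 with the actin covariate, 0 with the pyruvate carboxylase covariate, 2 without 6wk A and B and 4 to 6 without 1 array. For 7wk minus 3wk the 5 became 1 with the spike covariate, 0 with the pyruvate carboxylase covariate, 3 without 6wk A and B and 1 to 7 without 1 array (1 without 3wk A, 3wk C or 7wk A, 2 without 7wk C, 3 without 3wk B, 5wk A, 5wk B, 6wk A or 7wk B). Without 1 array 0 to 1 were called for 4wk minus 3wk, 5wk minus 4wk and 7wk minus 6wk. The cause was not tested. The replicate block gave 3, 6 and 5 calls at 5wk, 6wk and 7wk against 3wk, and what the letters mark is not stated. Over all probe sets the F test called 1741, against 728 with the actin covariate, 855 with the spike covariate, 753 with the pyruvate carboxylase covariate and 875 without 6wk A and B. Of 2597 member values under alternatives 2279 kept direction and side of the threshold, 126 lost the call, 27 gained it, 27 changed sign with a call in at least 1 of the fits compared, and 138 changed sign with no call in either. The luminal scaling, which lowers nearly all genes, gave 12 calls in the F test, 9, 11 and 11 at 5wk, 6wk and 7wk against 3wk and 4 for 5wk minus 4wk, and every change of sign that involved a call, beside 23 that did not. Those with a call were, for 5wk minus 3wk, Wnt2 1449425_at (−0.44), Wnt5a 1436791_at (−0.99), Wnt5a 1448818_at (−0.85), Wnt6 1419708_at (−1.73), Sfrp1 1416594_at (−1.54), Sfrp1 1438620_x_at (−1.50), Sfrp1 1460187_at (−1.26), Sfrp2 1448201_at (−1.43). For 6wk minus 3wk they were Wnt2 1449425_at (−1.14), Wnt5a 1436791_at (−1.07), Wnt5b 1439373_x_at (−1.70), Wnt6 1419708_at (−2.16), Sfrp1 1416594_at (−2.09), Sfrp1 1438620_x_at (−1.76), Sfrp1 1448395_at (−0.42), Sfrp1 1460187_at (−1.96), Sfrp2 1448201_at (−1.75). For 7wk minus 3wk they were Wnt2 1449425_at (−1.19), Wnt5a 1436791_at (−1.50), Wnt5a 1448818_at (−1.83), Wnt5b 1439373_x_at (−1.71), Sfrp1 1416594_at (−0.25), Sfrp1 1438620_x_at (−2.14), Sfrp1 1460187_at (−1.28), Sfrp2 1448201_at (−1.05), Sfrp4 1451031_at (−2.05). For 5wk minus 4wk it was Wnt6 1419708_at (−1.06). The number of arrays limits precision, and weak signal limits Wif1, Wnt5b, Sfrp1 1416594_at and Frzb.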

Other observations

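Of 10 tested genes tied to progesterone and oestrogen response, 4 were called higher at each of 5wk, 6wk and 7wk against 3wk. Of all 11344 genes, 2.57%, 8.39% and 5.82% were called higher at these ages. The median log2 difference of the 10 genes was 1.04 at 6wk. Stc2, a secreted glycoprotein responsive to oestrogen, was 2.55 higher at 6wk than at 3wk (SE 0.17) and Gata3, a transcription factor of luminal cells, 3.04 higher (SE 0.44). Foxa1, a partner of the oestrogen receptor, was 2.57 higher (SE 0.26) and Elf5, a factor of alveolar cells that is also in the luminal list, 2.71 higher (SE 0.29). The other 6 were not called: at 6wk against 3wk Esr1, the oestrogen receptor, differed by 0.46 (SE 0.69), Pgr, the progesterone receptor, by 0.94 (SE 0.50), Tnfsf11 by 1.15 (SE 0.82), Greb1 by 0.44 (SE 0.41), Tff1 by −0.31 (SE 0.12) and Xbp1 by −0.09 (SE 0.21). All 4 called genes are expressed by luminal cells, and their part in the Wnt4 result was not tested.

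Of 5 markers of brown fat, 4 were called lower at 6wk and 4 at 7wk against 3wk, with medians of −1.74 and −1.43, against 3.76% and 2.47% of all genes called lower. The fifth, Elovl3, differed by −0.21 at 6wk and 0.45 at 7wk (SE 0.21 each) and was not called. Genes of the R-spondin arm had a median difference of 1.48 at 5wk against 3wk, with 0 of 5 called at that age (2.57% of all genes were called higher and 1.29% lower).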
